A study of Lolium arundinaceum with 6 samples.

Results

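In heated leaves of tall fescue, 70 of 179680 unigenes showed a gain that was short: they were several times higher after 2 h at 38 °C and back near the control level after 12 h. A unigene is a gene as put together by the assembler from short reads, without a genome. The 70 members were chosen by their CPM, the usual scaling of a count to the total of its library. In both libraries of 2 h a member had at least 5 CPM and at least 3 times the higher of the controls. In both libraries of 12 h it had at most 1.5 times the higher control and at least 0.5 times the lower control, and each control library held at least 1 count. These limits used the values of all libraries and of every comparison between conditions, so the members' levels, and the values a fit gave them, are a description and no test of the members.

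The plants were wild-type seedlings of tall fescue, a cool-season turf grass (Festuca arundinacea, also named Lolium arundinaceum), 10 days old, and the variety was Fire Phoenix II. Leaf RNA was sequenced from seedlings kept at 23 °C, labelled 0 h, and from seedlings held at 38 °C for 2 h or for 12 h. Each of the 3 conditions had 2 libraries, which the paper calls biological replicates, and the same 2 control libraries served both time points. As no control was taken at 2 or 12 h, hours of heat and time of day cannot be told apart for any unigene here. In whole leaves, fewer cells of a type and less RNA per cell cannot be told apart either.

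Plants answer a sudden rise in temperature within minutes to hours. Heat shock factors switch on genes for chaperones, which keep proteins folded, and signalling by calcium, kinases and hormones such as abscisic acid and jasmonate changes as well. Part of such a response is short, because many of the genes induced first encode repressors or signalling parts whose transcripts decay quickly, while other transcripts stay high as long as the heat lasts.

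Library totals ran from 6349776 to 7891567 estimated counts, so that 5 CPM corresponded to 31.7 to 39.5 counts and 3 counts to 0.380 to 0.472 CPM. CPM values were not divided by length, so an order of unigenes by CPM is an order of their counts. Leaf tissue was checked with 13 unigenes annotated to photosynthesis, such as light-harvesting and photosystem proteins, whose summed level was 12724 to 12826 CPM in control libraries, 8909 to 10785 CPM at 2 h and 5306 to 5465 CPM at 12 h. Most of the control sum came from PSAK (c132391_g1), PSAO (c133500_g3) and PSBS (c137256_g1), with control means of 5204, 5096 and 1930 CPM. The control sum thus says little about the other unigenes of that list. The 24 unigenes of DNA replication, chromatin and cell division summed to 140 to 141 CPM in control libraries, 177 to 181 CPM at 2 h and 139 to 153 CPM at 12 h. The photosynthesis list also holds FTSH6, a chloroplast protease, and HPD, an enzyme of plastoquinone synthesis, which were higher in heat. Without them the photosynthesis sum was 12654 to 12757 CPM in control libraries, 8050 to 9887 CPM at 2 h and 3867 to 3924 CPM at 12 h. The part of these shifts in the results below was not tested.

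Together the 70 members took 803 and 838 CPM in the control libraries, 4219 and 3566 CPM at 2 h, and 800 and 871 CPM at 12 h. The median member had 4.09 and 4.50 CPM in the control libraries, 20.5 and 19.6 CPM at 2 h, and 4.13 and 4.91 CPM at 12 h. The sum and the median thus described the same course, with both libraries of 2 h apart from the other 4. The mean CPM at 2 h was 3.05 to 22.2 times the control mean, with a median of 4.69 times, and the mean CPM at 12 h was 0.617 to 2.35 times the control mean, with a median of 1.16 times. In 21 members the level at 2 h was 3 to 4 times the control mean, in 31 it was 4 to 6 times, in 11 it was 6 to 10 times and in 7 it was 10 times or more.

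**Figure D1:**
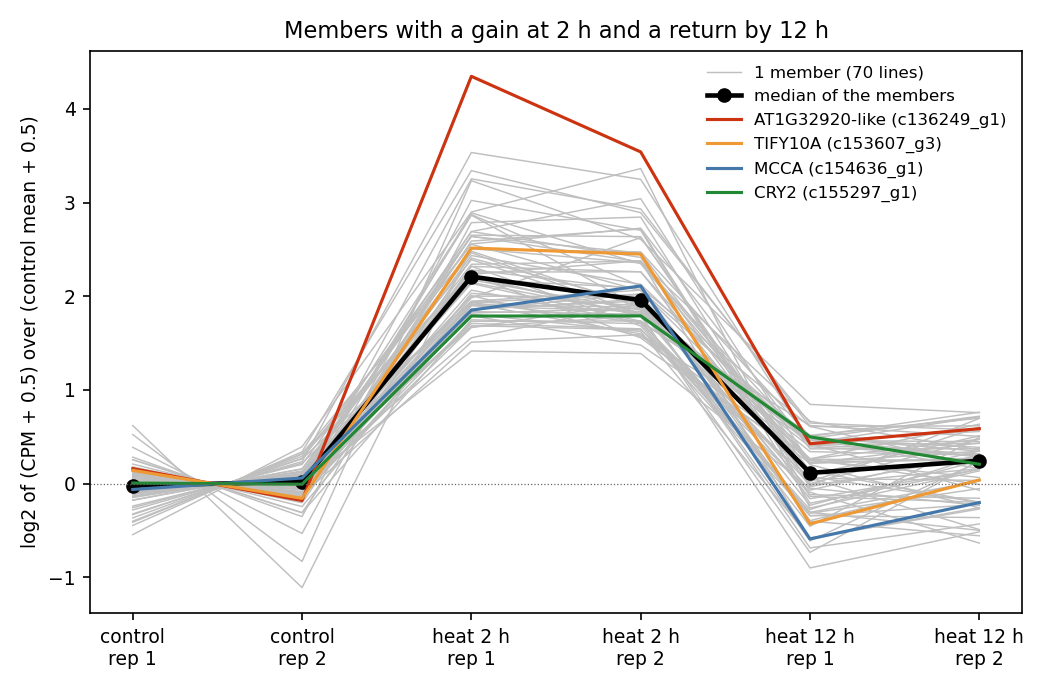
Level of each of the 70 members in each library (horizontal axis, by condition and replicate), as log2 of CPM plus 0.5 over the control mean plus 0.5 (vertical axis). Grey lines join the values of 1 member, the black line joins the medians, and 4 members are coloured. All members stand above the controls in both libraries of 2 h, and at 12 h they lie on both sides of the control mean.

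The CPM values rest on library totals, and these were not neutral. With totals alone the median log2 fold change over all 28005 unigenes tested was 0.20 at 2 h and -0.11 at 12 h, against 0.05 and 0.00 with the TMM factors, which scale the libraries to a common middle. With TMM factors the members had a median of 4.23 times the control mean at 2 h and 1.26 times at 12 h. Under TMM only 38 of the 70 met all limits of the rule: 17 missed only the 3 times limit at 2 h, 13 missed only the upper limit at 12 h and 2 missed both, while 1 of the 32 that were lost also fell under 5 CPM.

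All 70 members had counts enough to be tested in edgeR's quasi-likelihood fit over all libraries. In that fit 70 of 70 were called up at 2 h (at least 2-fold, with an adjusted p no higher than 0.05), where 15.1% of all unigenes tested were called up. At 12 h, 0 were called in either direction, where 48.6% of all were called. With an unadjusted p and with DESeq2 the count at 12 h was also 0, and 2 members were called when control replicate 1 or either library of 2 h was left out. Against 2 h, 70 of 70 were called lower at 12 h, against 19.6% of all unigenes tested. The rule had fixed these counts through the same libraries, and nothing about the members is read from them.

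A gain at 2 h that was gone at 12 h was the smaller outcome among unigenes that met the 2 h limits. There were 1008 unigenes with at least 5 CPM and 3 times the higher control in both libraries of 2 h and a count in each control. Of these, 923 (91.6%) were still over 1.5 times the higher control in at least 1 library of 12 h, 15 (1.49%) had fallen under 0.5 times the lower control in at least 1 library, and 70 (6.94%) were members. For the means of each condition, the members had a median of 4.49 CPM in control, 18.6 CPM at 2 h and 4.36 CPM at 12 h, and the 923 a median of 2.89, 27.6 and 23.4 CPM. The median gain at 2 h was 4.69 times in members, 7.49 times in the 923 and 5.04 times in the 15. Since the groups were formed from these values, the differences are descriptive. Of the 923, 232 had both libraries of 12 h above both of 2 h, 471 had both below, and 50 had a highest 12 h value between 1.5 and 2 times the higher control. The share over all unigenes was not computed for these counts, which use library totals. Over all unigenes tested, the median log2 fold change of 12 h over 2 h was -0.35 with library totals and -0.09 with TMM factors. The 923 were also chosen for high values at 2 h, so nothing is read from these counts.

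**Figure D2:**
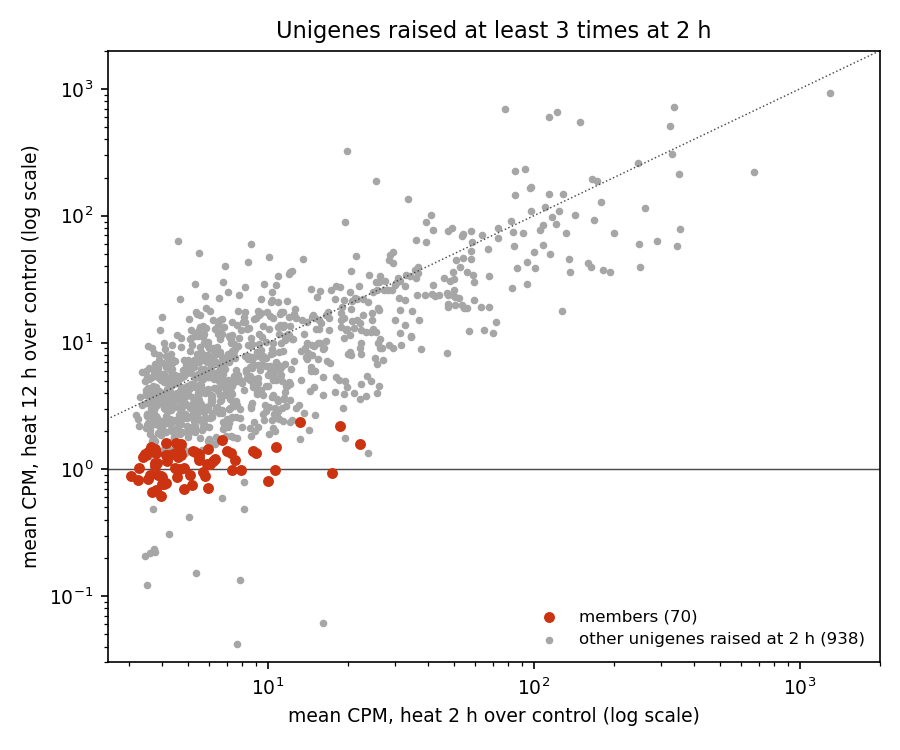
Mean CPM at 2 h over the control mean (horizontal, log scale) against mean CPM at 12 h over the control mean (vertical, log scale) for the 1008 unigenes that met the limits at 2 h. The 70 members (red) lie in a band around 1 on the vertical axis (solid line), from 0.617 to 2.35, and at gains of 3.05 to 22.2 times. Most of the others (grey) lie higher, many of them near the dotted line of equal level at both times.

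Names were at hand for few members. In the tables used here 1947 unigenes carried a best match in Arabidopsis or rice, and the rows used of the large table of changed genes reached only matches on Arabidopsis chromosome 1. Of the 70 members, 6 (8.57%) had a name, and all 6 names came from that chromosome. Among the 923 that were over the upper limit in at least 1 library of 12 h, 172 (18.6%) had one. The tables list unigenes that the study picked as changed by heat, so nothing is read from the difference between these shares. The roles below are those known in Arabidopsis, and the 64 other members are given by their identifier.

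Of the named members, one encodes a repressor of a hormone pathway. TIFY10A (JAZ1, c153607_g3) binds the transcription factors of the jasmonate response and holds them off until jasmonate triggers its breakdown, and its own gene is among those that jasmonate and wounding induce. It had 11.2 and 8.997 CPM in control libraries, 60.0 and 57.4 CPM at 2 h, and 7.37 and 10.4 CPM at 12 h. Both libraries of 2 h stood more than 5 times above every other library, and the values at 12 h overlapped the controls. The log2 fold change was 2.40 (SE 0.21) at 2 h and -0.06 (SE 0.23) at 12 h. It was the only named member that met the rule under each of the 18 other settings tried. Settings that only loosened a limit, including those without a heat library, could not remove a member.

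A second member linked with injury was c136249_g1, whose best match, AT1G32920, is a protein of unknown function annotated to the response to wounding. It had 1.42 and 1.01 CPM in control libraries (9 and 8 counts), 34.4 and 19.5 CPM at 2 h, and 1.80 and 2.08 CPM at 12 h. Its gain of 22.2 times the control mean was the highest of all members, although the 2 libraries of 2 h differed from each other by more than 1.5 times. The log2 fold change was 4.33 (SE 0.39) at 2 h and 0.80 (SE 0.51) at 12 h. Both values at 12 h stood above both controls, and the unigene left the set under TMM and RLE scaling.

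CRY2 (cryptochrome 2, c155297_g1) is a blue light receptor that acts in flowering time and in growth under light. It had 36.1 and 35.7 CPM in control libraries, 125 and 125 CPM at 2 h, and 51.0 and 41.5 CPM at 12 h. The replicates at 2 h were nearly equal, and the values at 12 h, although within the limits, both lay above both controls. The log2 fold change was 1.65 (SE 0.17) at 2 h and 0.48 (SE 0.17) at 12 h. It did not meet the rule under TMM or RLE scaling.

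MCCA (the alpha subunit of methylcrotonyl-CoA carboxylase, c154636_g1) belongs to a mitochondrial biotin enzyme in the breakdown of leucine. It had 35.1 and 38.3 CPM in control libraries, 134 and 160 CPM at 2 h, and 24.2 and 31.8 CPM at 12 h. Here both values at 12 h were below both controls, the opposite position to that of CRY2. The log2 fold change was 1.85 (SE 0.18) at 2 h and -0.28 (SE 0.18) at 12 h.

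The remaining named members had low levels. The unigene c137709_g1 matched a protein phosphatase of the 2C family, enzymes that remove phosphate from serine and threonine and that include repressors of abscisic acid signalling, although the description does not place this one among them. It had 1.57 and 1.77 CPM in control libraries, 7.04 and 5.56 CPM at 2 h, and 2.10 and 1.66 CPM at 12 h, with a log2 fold change of 1.75 (SE 0.38) at 2 h and 0.27 (SE 0.44) at 12 h. The unigene c143296_g2 matched AT1G40390, annotated as a DNase I-like protein, and its description placed it in the list of transposon-like sequences. It had 1.89 and 2.28 CPM in control libraries, 9.85 and 9.80 CPM at 2 h, and 2.25 and 3.18 CPM at 12 h, with a log2 fold change of 2.07 (SE 0.34) at 2 h and 0.49 (SE 0.38) at 12 h. With library totals the values at 12 h overlapped the controls in both unigenes. With TMM factors both values of c143296_g2 at 12 h lay above both controls, and those of c137709_g1 still overlapped. The phosphatase did not meet the rule under TMM or RLE scaling, and c143296_g2 did not under RLE, so that 3 of the 6 named members met it under TMM.

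**Figure D3:**
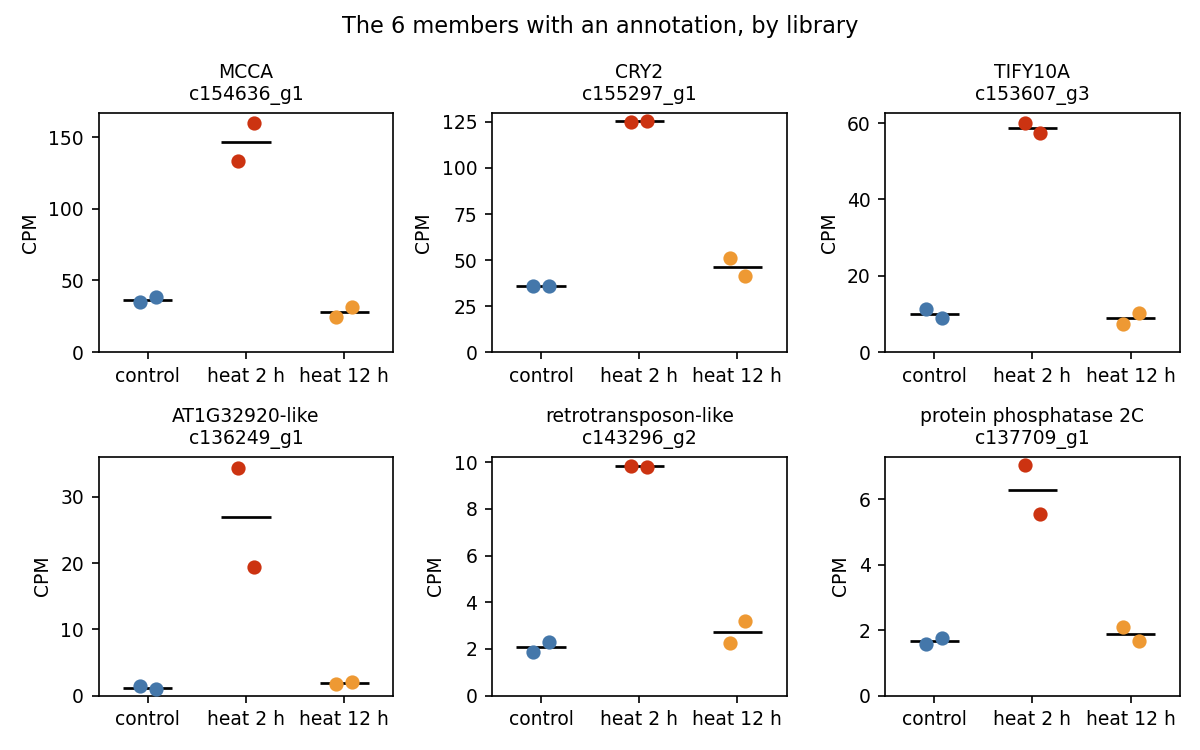
CPM of the 6 named members in control, at 2 h and at 12 h (points are libraries, bars are means, each panel with its own axis from 0). In every panel both libraries of 2 h lie above the other 4, and at 12 h MCCA lies below the controls while CRY2 and the AT1G32920-like unigene lie above them.

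A few members held most of the counts. The member with the highest CPM at 2 h, c147838_g2, took 16.3% of the members' sum at 2 h, and the top 10 took 56.6%. In c147838_g2 the levels were 150 and 170 CPM in control libraries, 709 and 560 CPM at 2 h, and 85.4 and 112 CPM at 12 h, so that it went below its controls at 12 h, at 0.617 times their mean, which was the lowest ratio of all members. It did not meet the rule under TMM or RLE scaling, and 7 of the top 10 met it under TMM. The next, c137782_g2, had 65.4 and 61.6 CPM in control libraries, 465 and 235 CPM at 2 h, and 74.4 and 75.8 CPM at 12 h. Its replicates at 2 h differed by 1.98 times, the widest gap at that time among members.

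Further members of the top 10 without a name differed mainly in where they ended at 12 h. The levels of c145587_g2 were 17.5 and 25.2 CPM in control libraries, 253 and 207 CPM at 2 h, and 29.0 and 35.3 CPM at 12 h, a gain of 10.8 times with a remainder of 1.51 times the control mean. In c156311_g1 they were 33.2 and 27.5 CPM in control libraries, 193 and 191 CPM at 2 h, and 30.4 and 42.4 CPM at 12 h. The pair c153021_g1 and c148890_g1 ended below both controls. The first had 28.5 and 29.5 CPM in control libraries, 149 and 153 CPM at 2 h, and 19.2 and 24.2 CPM at 12 h. The second had 19.2 and 21.2 CPM in control libraries, 151 and 88.7 CPM at 2 h, and 15.2 and 13.6 CPM at 12 h. In c154052_g1 the control libraries had 35.9 and 34.3 CPM, those of 2 h 133 and 131 CPM, and those of 12 h 34.9 and 39.3 CPM, which overlapped the controls. With TMM factors both values at 12 h lay above both controls in c154052_g1 and also in c156311_g1. In c140048_g2 the control libraries had 36.4 and 38.3 CPM, those of 2 h 123 and 118 CPM, and those of 12 h 29.3 and 32.0 CPM. The unigene c140048_g2 did not meet the rule under TMM or RLE scaling, and c145587_g2 did not under RLE scaling. MCCA and CRY2 complete the top 10.

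At the other end stood members whose high ratio rests on few control counts. The mean at 2 h was under 10 CPM in 18 members, 10 to 50 CPM in 29, 50 to 100 CPM in 12 and 100 CPM or more in 11. A control library with under 10 counts occurred in 12 members, and 55 members had at least 10 counts in every library. Of the 7 members at 10 times or more, 3 had a control library with a single count: c126755_g1 with 0.157 and 0.634 CPM in control libraries, 8.57 and 6.14 CPM at 2 h, and 0.902 and 0.830 CPM at 12 h; c135537_g1 with 0.157 and 0.760 CPM, 6.65 and 9.36 CPM, and 0.301 and 0.554 CPM in the same order of conditions; and c152339_g1 with 1.10 and 0.127 CPM, 9.98 and 6.29 CPM, and 1.503 and 1.38 CPM. In these the gains of 18.6, 17.5 and 13.2 times rest on control sums of 6, 7 and 8 counts. The others of the 7 were mostly low as well. Control counts were 9 and 8 in c136249_g1, 8 and 5 in c136102_g5, and 5 and 5 in c135735_g1. Only c145587_g2 had more, with 111 and 199.

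The return by 12 h was not to exactly the control level in every member. Both libraries of 12 h lay above both controls in 28 members, both lay below in 11, and 31 overlapped. Over all 28005 unigenes tested, 38.8% had both libraries of 12 h above both controls and 43.8% had both below. With TMM factors 35 members were above, 8 below and 27 overlapped, and the shares over all unigenes were 41.6% above and 40.9% below. The limits at 12 h keep members near their controls, so nothing about them is read from these counts. The 12 h mean was above the control mean in 45 of 70 members with library totals, in 50 with TMM factors and in 53 with RLE factors, so the balance of members above and below moved with the scaling.

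At 2 h, replicates of the members differed by less than those of the unigenes tested with a mean of at least 10 CPM. In the other conditions they differed by more. Replicate 1 of 2 h was the higher in 48 of 70 members (68.6%), while it was the higher in 42.2% of the 9030 unigenes tested with a mean of at least 10 CPM. The SD of the log2 ratio of replicate 1 over replicate 2 was 0.316 in members and 0.499 in the 9030 at 2 h, 0.437 and 0.240 in control, and 0.341 and 0.239 at 12 h. The rule requires both libraries of 2 h to be high. Many members had lower counts than the 9030, with 18 of 70 under a mean of 10 CPM even at 2 h. Members with a mean of at least 10 CPM are among the 9030, and nothing is read from these spreads. The ratio between replicates of 2 h was over 1.5 in 10 members.

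Members and other unigenes lay close together at the 3 times and 1.5 times limits, and less so at the 0.5 times limit. At the 3 times limit, c129352_g1, c147193_g1 and c138060_g3 were just inside with a lowest 2 h value of 3.001, 3.003 and 3.006 times the higher control, while c139787_g3, c151978_g2 and c144300_g5 were just outside with 2.993, 2.989 and 2.988 times. At the 1.5 times limit, c155692_g1, c117556_g1 and c136249_g1 were inside with a highest 12 h value of 1.495, 1.486 and 1.465 times the higher control. Outside it were c133456_g1 with 1.502 times, c156215_g1 with 1.517 times and c152610_g1 (a CHY and RING type zinc finger protein) with 1.535 times. At the 0.5 times limit, c146983_g1, c147838_g2 and c156092_g1 were inside with a lowest 12 h value of 0.553, 0.571 and 0.610 times the lower control, and c142611_g1, c155976_g1 (DNase I-like) and c148147_g1 were outside with 0.4003, 0.347 and 0.330 times. At 5 CPM, c142542_g1, c137709_g1 and c134637_g1 were inside with 5.37, 5.56 and 5.71 CPM in the lower library of 2 h, and c151309_g1, c152871_g2 and c132822_g1 were outside with 4.68, 4.68 and 4.54 CPM. Only c137248_g1 was left out for want of a control count alone, with 0 counts in 1 control library.

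The number of members therefore followed the limits. It was 149 at a floor of 1 CPM, 49 at 10 CPM, 268 at a rise of 2 times, 30 at 4 times, 41 with an upper limit of 1.2 times at 12 h and 120 with 2 times. With RLE factors 36 members were left, all among the 70. When group means replaced the lowest and highest libraries 170 unigenes met the limits, 62 of them members. Leaving out control replicate 1 or control replicate 2 gave 74 and 77 unigenes, of which 55 and 53 were members. Leaving out a heat library can only loosen the limits, so all 70 met them by construction. The number was 98 without 2 h replicate 1, 169 without 2 h replicate 2, 94 without 12 h replicate 1 and 102 without 12 h replicate 2. Across all 18 settings 9 members met the rule each time, although settings that loosen a limit could not remove a member. In each of the settings that left out a library 40 met it, and only the settings without a control could remove a member.

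**Figure D4:**
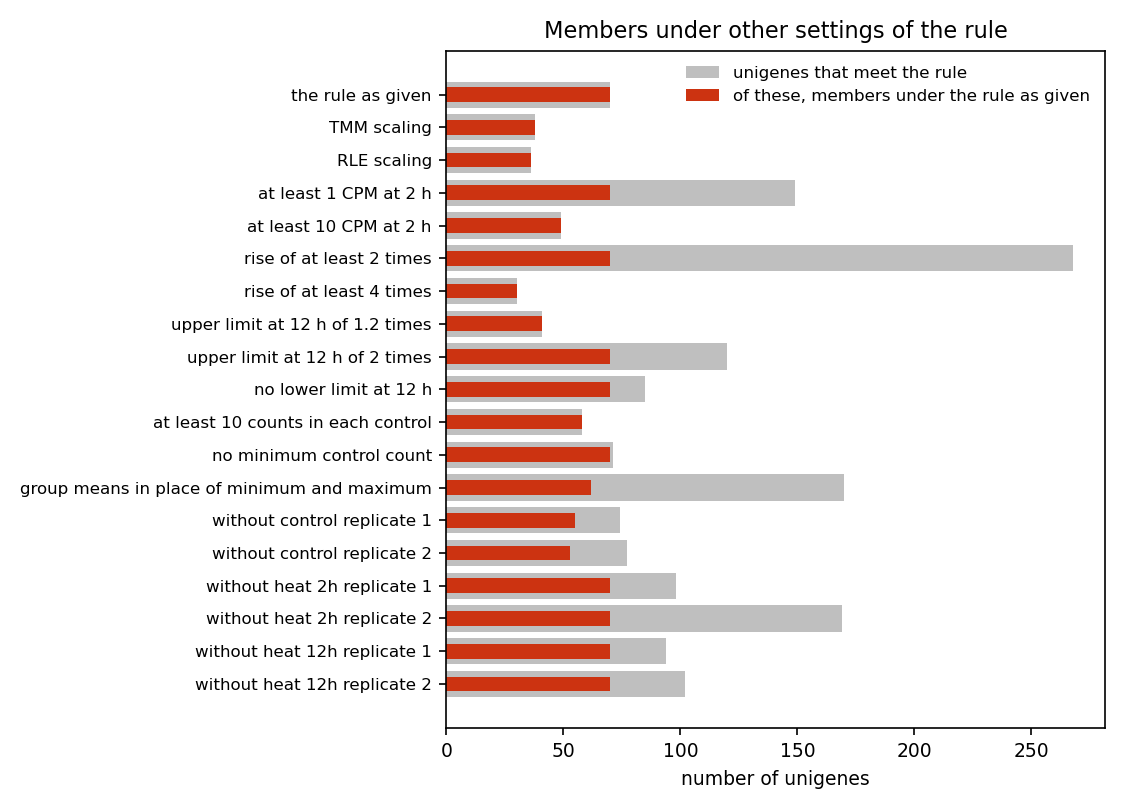
Number of unigenes that met the rule as given and under 18 other settings (grey bars), with those among them that belong to the 70 members (red bars). The number ranged from 30 at a rise of at least 4 times to 268 at a rise of at least 2 times.

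The assembler groups sequences that overlap into components, shown by the first number of an identifier, and unigenes of a component can be parts, copies or relatives of one gene that share reads. The 70 members fell in 70 different components, 1 in each. In 40 of these there were 77 other unigenes, of which 21 had counts enough to be tested. At 2 h, 11 of the 21 were called up, against 15.1% of all unigenes tested, and 0 were called down, against 8.98%. The median log2 fold change was 1.36, against 0.05 over all. With an unadjusted p 1 was called down and with DESeq2 0, and the count called up was 6 with DESeq2 or without control replicate 2, 7 without control replicate 1 and 6 where 10 counts were required in every library. At 12 h, 7 were called up, against 25.3% of all unigenes tested, and 4 down, against 23.3%, so that both counts were near the share over all. The median log2 fold change at 12 h was 0.50, against 0.00 over all. That median was 0.053 without 12 h replicate 2, and the count called down was 2 without control replicate 1 and 1 without 12 h replicate 2. In the direct comparison, 8 were lower at 12 h than at 2 h, against 19.6% of all, and 4 were higher, against 16.2%.

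Of these unigenes, some followed the course of the member beside them. The unigene c136249_g2, with the same best match as c136249_g1, had 1.73 and 2.03 CPM in control libraries, 54.4 and 35.0 CPM at 2 h, and 1.503 and 3.60 CPM at 12 h. Its log2 fold change was 4.40 (SE 0.36, adjusted p = 2.5e-06 in edgeR) at 2 h and -3.85 (SE 0.35, adjusted p = 8.2e-06) for 12 h over 2 h. It missed the rule through 1 library of 12 h. The unigene c140048_g1 had 28.3 and 29.1 CPM in control libraries, 158 and 85.0 CPM at 2 h, and 20.6 and 23.3 CPM at 12 h, and changed by 1.93 (SE 0.25) at 2 h on the log2 scale, with an adjusted p of 0.00012 in edgeR. It missed the 3 times limit through the second library of 2 h.

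Others did not. The unigene c155297_g2, from the component of CRY2 and without a name, had 5.35 and 6.21 CPM in control libraries, 23.03 and 28.2 CPM at 2 h, and 24.4 and 16.3 CPM at 12 h. It was called up at 2 h, with a log2 fold change of 1.99 (SE 0.26, adjusted p = 0.00012 in edgeR), and also at 12 h, with 1.92 (SE 0.27, adjusted p = 7.0e-05). The unigene c151127_g1 had 19.7 and 19.8 CPM in control libraries, 23.8 and 43.9 CPM at 2 h, and 62.1 and 57.6 CPM at 12 h, so that it was high when its member, c151127_g2, was back at 12.6 and 16.5 CPM. In c143394_g2 the level was 26.3 and 30.7 CPM in control libraries, 34.2 and 38.9 CPM at 2 h, and 8.12 and 8.86 CPM at 12 h, a log2 fold change of -1.63 (SE 0.20) at 12 h with an adjusted p of 3.2e-05 in edgeR. Its member, c143394_g1, had 13.2 and 16.7 CPM at 12 h, against 12.8 and 14.3 CPM in control libraries. In the component of TIFY10A, c153607_g1 matched another gene, the ARF GAP-like protein AGD14, and had 3.46 and 3.04 CPM in control libraries, 0.768 and 1.90 CPM at 2 h, and 1.35 and 0.415 CPM at 12 h.

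A gene can also be present as several unigenes in different components, which in a polyploid grass may be copies on its separate genomes or other members of its family. The tables used name 17 other unigenes with the best match of one of the 6 named members, and 16 were tested. They were picked once the named members were known, and the largest of those tables lists unigenes that the study itself called changed on these libraries, so their counts are no independent evidence. At 2 h, 9 were called up and 1 down, against 15.1% and 8.98% of all unigenes tested, and at 12 h 9 were called up and 4 down, against 25.3% and 23.3%. The count called up at 2 h was 5 with DESeq2 and 3 without control replicate 1.

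The other TIFY10A unigenes were called up at both times, unlike the member. The highest of them, c140502_g1, had 2.205 and 1.01 CPM in control libraries, 13.9 and 17.8 CPM at 2 h, and 6.16 and 8.58 CPM at 12 h, with log2 fold changes of 3.18 (SE 0.37, adjusted p = 4.1e-05 in edgeR) and 2.34 (SE 0.39, adjusted p = 0.00027). For c109936_g1 the log2 fold changes were 2.74 (SE 0.57) at 2 h and 3.06 (SE 0.56) at 12 h, and for c142570_g1 they were 1.86 (SE 0.52) and 1.66 (SE 0.55), although the calls of c142570_g1 were lost with DESeq2 and without either control. In CPM the member was the highest of the 4 unigenes in each condition, but at 12 h its lower library, with 7.37 CPM, lay under the 8.58 CPM of c140502_g1.

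For MCCA, the other unigenes had log2 fold changes at 2 h of 2.34 (SE 0.62) in c132354_g1 and 1.09 (SE 0.35) in c142053_g1, both called up, and both calls were lost with DESeq2 and without either control. Neither was called at 12 h, with 1.37 (SE 0.72) and 0.96 (SE 0.36), although c142053_g1 was with RLE factors or without control replicate 2. The other CRY2 unigene, c140898_g1, had 12.1 and 16.1 CPM in control libraries, 7.16 and 17.3 CPM at 2 h, and 4.36 and 3.04 CPM at 12 h. It was not called at 2 h, with a log2 fold change of -0.38 (SE 0.35), except without 2 h replicate 2, where it was called down. It was called down at 12 h with -1.82 (SE 0.40, adjusted p = 0.0020 in edgeR). For AT1G32920, c136249_g2 is described above, and c137410_g1 went the other way, with 11.2 and 12.7 CPM in control libraries, 2.43 and 1.90 CPM at 2 h, and 0.150 and 0.554 CPM at 12 h.

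**Figure D5:**
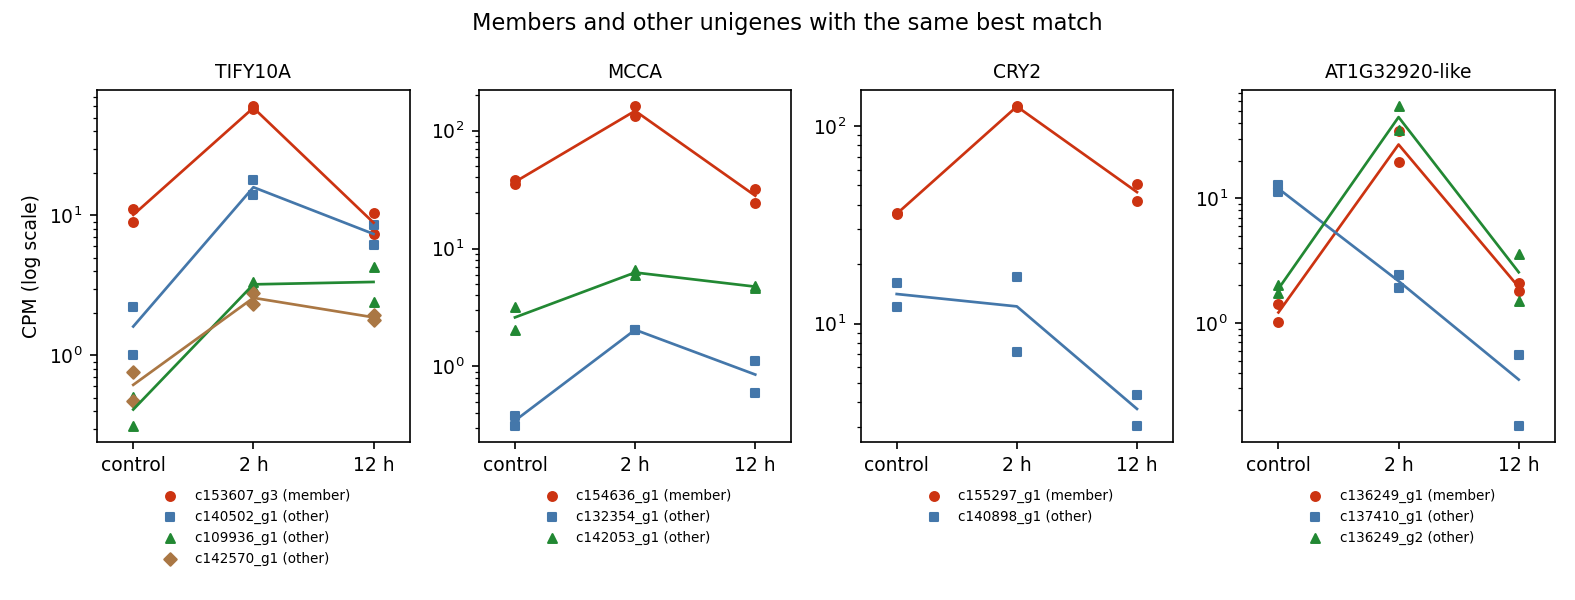
CPM (log scale) in control, at 2 h and at 12 h for 4 named members (red) and the other unigenes with the same best match (points are libraries, lines join means). Of these members and the other TIFY10A unigenes all were higher at 2 h than in control, while c137410_g1 was lower in heat and the second CRY2 unigene was lower at 12 h.

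The remaining named members had other unigenes of mixed course. Beside the protein phosphatase 2C member, c144065_g1 had 6.14 and 6.97 CPM in control libraries, 14.8 and 16.2 CPM at 2 h, and 16.2 and 24.8 CPM at 12 h, with log2 fold changes of 1.09 (SE 0.26) and 1.75 (SE 0.25), both called up, the first not without control replicate 1. The other, c138621_g2, had 1.42 and 3.17 CPM in control libraries, 3.20 and 1.61 CPM at 2 h, and 0.150 and 0 CPM at 12 h. Its single count at 12 h against 34 in the controls corresponds to a level 33.1 times lower at 12 h (95% exact interval 5.56 to 1347, counting error only). Of the other DNase I-like unigenes with the match of c143296_g2, 6 were tested. The highest at 12 h, c151615_g2, had 0.945 and 0.760 CPM in control libraries, 1.41 and 2.05 CPM at 2 h, and 10.4 and 10.4 CPM at 12 h, with a log2 fold change of 3.71 (SE 0.39, adjusted p = 8.0e-06 in edgeR) at 12 h. Called up at both times were c145671_g1 and c153112_g2. Called up at 12 h only were also c144430_g2 and c174713_g1, the second with 3 summed counts in the controls. In contrast, c145565_g2 was called down at 12 h, with a log2 fold change of -1.25 (SE 0.42).

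The shares of all 28005 unigenes tested, against which the counts of lists are to be read, were 15.1% called up and 8.98% called down at 2 h, and 25.3% and 23.3% at 12 h. Of 19 lists of unigenes by annotation, 2 held a member, and each held 1. None of the 38 chaperones and heat shock factors was a member. At 2 h, 30 of them were called up and 1 was called down, with a median log2 fold change of 5.41. At 12 h it was 32 up and 4 down, with a median of 5.16. None of the 120 transcription factors or of the 29 unigenes of calcium signalling was a member either, nor any of the 29 of the abscisic acid pathway. Members were 70 of the 28005 unigenes tested, so at that share lists of these sizes would hold few members or none. Nothing is read from these zeros. With 64 of 70 members unnamed, they cover only the named part of the set. All lists come from the same tables of changed genes, so their counts describe the tables as much as the leaves.

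In the list of kinases and phosphatases, which holds the phosphatase member, 130 of 137 unigenes were tested, with 26 called up and 22 down at 2 h (median log2 fold change -0.41) and 46 up and 73 down at 12 h (median -1.18). The 26 called up at 2 h were near the share over all unigenes, and 16 were called up without control replicate 1. The 4 others of this list with the smallest adjusted p at 2 h were changed at both times. OST1 (SnRK2.6, c156184_g1), a kinase of abscisic acid signalling, had log2 fold changes of 6.68 (SE 0.17) at 2 h and 7.33 (SE 0.17) at 12 h. HERK2 (c144500_g1), a receptor kinase, had 4.62 (SE 0.17) and 4.82 (SE 0.17). GCN2 (c108357_g1), a kinase that acts on translation, had 489 summed counts at 2 h against 3 in the controls, a ratio of 158 (95% exact interval 53.9 to 771, counting error only). The unigene c151602_g1, of the inositol monophosphatase family, had -1.51 (SE 0.15) and -1.71 (SE 0.15).

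In the list of transposon-like unigenes, which holds c143296_g2, 134 of 143 were tested, with 71 called up and 9 down at 2 h (median log2 fold change 1.48) and 97 up and 24 down at 12 h (median 2.15). Where 10 counts were required in every library, 21 were called up at 2 h and 24 at 12 h. Both c156834_g1, whose best match is CRK8, and c141310_g1, an RNA-directed DNA polymerase-related unigene, stayed high, with log2 fold changes of 6.72 (SE 0.26) and 6.60 (SE 0.29) at 2 h and of 6.73 (SE 0.26) and 5.97 (SE 0.29) at 12 h. In c147761_g1, with a hAT dimerisation domain, 3968 counts at 2 h stood against 3 in the controls, a ratio of 1286 (95% exact interval 440 to 6237). In c128658_g1 it was 873 counts against 1, a ratio of 849 (95% exact interval 152 to 33553). All 4 were called up at 12 h as well.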

How the data were processed

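Leaf RNA of 6 libraries, 2 per condition, had been sequenced. The Trinity assembly used these reads together with reads of a parallel experiment, according to the paper. The deposited table was read as the authors' expected counts per unigene, unscaled. RSEM is named in the paper's methods, whereas the submitters' processing notes name TopHat2 2.0.12, Bowtie2 2.2.3 and HTSeq 0.6.1. Of all values, 0.157% were not whole, and counts were rounded. No reference genome was used. The authors tested with DESeq 1.18.0, which was not run here.

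CPM values were counts over library totals. For tests, filterByExpr (minimum count 10) left 28005 unigenes with 97.7 to 98.4% of the counts, scaled by TMM and fitted over all 6 libraries in edgeR 4.0.16 (R 4.3.3), with 3 residual degrees of freedom, a common dispersion of 0.0271 and Benjamini-Hochberg adjustment. A call needed at least a 2-fold change with an adjusted p no higher than 0.05. The p-values cover only the variation among these replicate libraries.

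Members were found by the rule on CPM. The members, lists and naming rule were chosen with earlier results of these data known. Named were every annotated member, the 10 members with the highest mean CPM at 2 h, the 3 unigenes nearest each limit inside and outside, and 4 others of each list with members by the smallest adjusted p at 2 h. Unigenes of the members' components, and those with the same best match, were added; the second group was picked after the named members had been seen, and examples among them were chosen after seeing their values. Annotations came from the paper's tables, of which 1472 rows of the largest were used; its own fold changes and p-values were not.

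Alternatives were other limits of the rule, library totals alone, RLE factors, 10 counts in every library, a filter of 1 count in all, DESeq2 1.42.0, a fit of the libraries compared, a replicate block, unadjusted p and each library left out in turn. Exact intervals cover counting error only.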

Additional observations from a re-analysis of the deposited data

Results flagged for a closer look

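Several unigenes that were not members, but came from a member's component or shared its best match, had a change at 12 h that differed from that at 2 h in the direct comparison of edgeR. The values are log2 fold changes of 12 h over 2 h. The control libraries are shared by both times and do not enter this comparison.

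Lower at 12 h than at 2 h were c136249_g2 (-3.85) and c136249_g3 (-2.48) beside the AT1G32920-like member, c147178_g1 (-2.64), c140048_g1 (-2.21), c136102_g3 (-2.12), c143394_g2 (-1.84) and c144050_g1 (-1.31). The same held for c137410_g1 (-2.29), with the best match AT1G32920, and for the second CRY2 unigene, c140898_g1 (-1.44). Higher at 12 h were c138060_g6 (2.14), c151127_g3 (1.7), c152902_g4 (1.4) and c151127_g1 (1.09) of the components, and c151615_g2 (2.85), c145671_g1 (1.48) and c144430_g2 (1.24) of the DNase I-like unigenes. In the direct comparison, 10 of these 16 lost the call under at least 1 alternative, and c136249_g2, c140048_g1, c143394_g2, c147178_g1, c151127_g3 and c151615_g2 kept it in each alternative that tested them.

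A further pair had too few counts at 12 h for a fitted difference. The unigene c148458_g2 had 0 counts at 12 h and 27 at 2 h, at least 8.52-fold lower with a floor of 3 counts over the group (adjusted p = 0.00193 in edgeR). The protein phosphatase 2C unigene c138621_g2 had 1 count at 12 h and 36 at 2 h, a level 34.1 times lower at 12 h (95% exact interval 5.74 to 1384, adjusted p = 0.00319 in edgeR).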

How the results depend on the processing

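The number of members (70) moved with the rule and with the libraries used: 38 with TMM, 36 with RLE, 149 at 1 CPM, 268 and 30 at rises of 2 and 4 times, 41 and 120 with upper limits of 1.2 and 2 times, 170 with group means, and 74 to 169 with a library left out, the highest without the second library of 2 h. With 10 counts required in every library, fewer unigenes were tested, and the calls were 1961 up at 2 h (4236 as reported), 6015 at 12 h (13609) and 2471 lower at 12 h than at 2 h (5502). The last count was 3442 with DESeq2. With a library left out the counts were 2911 to 5379, 12004 to 16142 and 3609 to 6011, the lowest of the last without 12 h replicate 1.

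Median log2 fold changes kept their sign. For unigenes of the members' components it was 1.51 at 2 h with library totals, and with a library left out 1.24 to 1.501 at 2 h and 0.053 to 0.78 at 12 h. For kinases and phosphatases it was -0.26 and -1.30 with library totals at 2 h and 12 h, and -0.53 to -0.34 and -1.25 to -1.11 with a library left out. For transposon-like unigenes it was 1.63 and 2.04 with library totals, 1.08 and 1.199 with 10 counts in every library, and 1.33 to 1.57 and 2.05 to 2.304 with a library left out.

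Of 174 log2 fold changes of 58 named unigenes, none changed sign together with a call. Of 79 calls of unigenes that were not members, 31 were lost when some library was left out, 19 of them also with DESeq2; the causes were not tested. At about 5 CPM a library holds 31.7 to 39.5 counts, which limits the members near that floor.

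Same-numbered libraries deviated with correlations of -0.05, 0.05 and -0.04 between conditions, so no large shared deviation was seen. The labels do not say whether a replicate number marks a batch, and these correlations cannot exclude one. With a replicate block the calls were 3950 up at 2 h, 13283 at 12 h and 5179 lower at 12 h, and 1 call of a named unigene, c151589_g3 at 2 h, was lost.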
